A study of Equus caballus with 13 samples.

Results

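The genes described here encode the chains of the cartilage collagens II, IX and XI: COL2A1, COL9A1, COL9A2, COL9A3, COL11A1 and COL11A2. They were chosen by name, and all 6 were listed in both deposited tables of RNA kinetics, among 11056 genes in the table for age and 11249 in the table for sex (10974 in both). The cells were wild-type (WT) chondrocytes from horse (Equus caballus) cartilage, grown for 2 days in complete DMEM and then exposed to 4-thiouridine (4sU) for 4 h. The age table compared old females (5 samples) with young females (5 samples), and the sex table compared young males (3 samples) with the same 5 young female samples. Every group carried the 4sU treatment, and the labels gave no ages in years. 4sU is a uridine analogue that enters newly made RNA, and its alkylation with iodoacetamide lets new RNA be told from older RNA in sequencing. Each table held, for every gene and group, a synthesis rate and a half-life estimated by the authors. The series title names age and sex as the factors whose effect on control of RNA after transcription was studied.

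Collagen II is the main fibril-forming collagen of hyaline cartilage and is built from identical chains encoded by COL2A1. Collagen XI, with chains from COL11A1 and COL11A2 and a further chain that is a product of COL2A1, sits inside the fibril and limits its width. Collagen IX, with a chain from each of COL9A1, COL9A2 and COL9A3, lies on the fibril surface, is cross-linked to collagen II and projects into the surrounding matrix. Loss of these transcripts, with a turn to collagen I, is a known mark of chondrocytes that dedifferentiate in culture. The transcription factor SOX9, with SOX5 and SOX6, is the known activator of these genes.

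The tables gave a single value per gene and group, so no spread between samples, no interval and no test could be computed, and depth per sample is unknown. All differences below are descriptions by size, and a gene is called higher or lower when its ratio reached 2-fold (an absolute log2 ratio of at least 1). Half-lives were read as hours, and synthesis rates are in arbitrary units. The implied level, derived from both, is the synthesis rate times the half-life divided by the natural log of 2; it assumes that RNA amounts were constant during labelling. The 13 samples carried 12 batch labels, and only batch 10 was shared, by 2 samples, 1 from the young females and 1 from the young males, so batch and group cannot be told apart. In bulk RNA, fewer cells of a type and less RNA per cell cannot be told apart either. Of 9 chondrocyte markers, 7 were listed (ACAN, SOX9, COMP, HAPLN1, MATN3, CNMD and CHAD), while MATN1 and PRG4 were not. Of 7 leukocyte and 5 endothelial markers, only CD14 and VWF were listed.

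Because the young female libraries entered both tables, the same samples were estimated 2 times, which is the only repeat the data hold; the labels do not say whether samples came from separate animals. For the 6 collagen genes the implied level in the sex table was lower by a near-equal offset, with a median log2 ratio of -0.07, the same as over all 10974 shared genes. The division of that level into synthesis and half-life repeated less closely. COL9A1 moved most, with a half-life of 24.2 h in the age table and 21.6 h in the sex table, a difference of 11.0%, and synthesis rates of 14.5 and 15.5. COL2A1 had half-lives of 22.6 and 21.6 h, and those of COL9A2 and COL11A2 differed by 0.198% and 0.222%. The largest absolute log2 difference among the 6 genes was 0.17 for half-life and 0.10 for synthesis rate. This repeat shares its reads and so holds none of the variation between animals.

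All 6 transcripts were among the long-lived RNAs of these cells. In young female cells of the age table their half-lives ran from 22.6 h for COL2A1 to 69.3 h for COL9A3, against a median of 3.64 h over all genes, and none lay below the 92.1 percentile of the table. COL9A1 had a half-life of 24.2 h, COL11A1 of 27.7 h, COL11A2 of 48.6 h and COL9A2 of 60.1 h. The 3 genes of collagen IX thus spanned nearly the whole range, although their products are chains of a single molecule. COL9A3 stood at 69.3 h, the highest value any column held, in every group. That highest value, the ceiling, equals a decay rate of 0.01 each hour, and a half-life listed there is a lower limit at best. Only 91 genes (0.823%) were at the ceiling in young female cells of the age table, and 7.38% of genes were above 24 h.

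Such half-lives leave little new RNA to be measured after 4 h. With constant amounts, a transcript at the median half-life of all genes in young female cells would be 53.3% new after labelling, COL2A1 11.5%, COL9A1 10.8%, COL11A1 9.51%, COL11A2 5.55%, COL9A2 4.51% and COL9A3 3.92%. Between 60.1 h and the ceiling the new share therefore differs by less than 1 percentage point. Only COL2A1 lay within 1 to 24 h in both groups of the age table, and none of the 6 did so in the sex table. Half-life differences among these genes are read with that in mind.

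**Figure D1:**
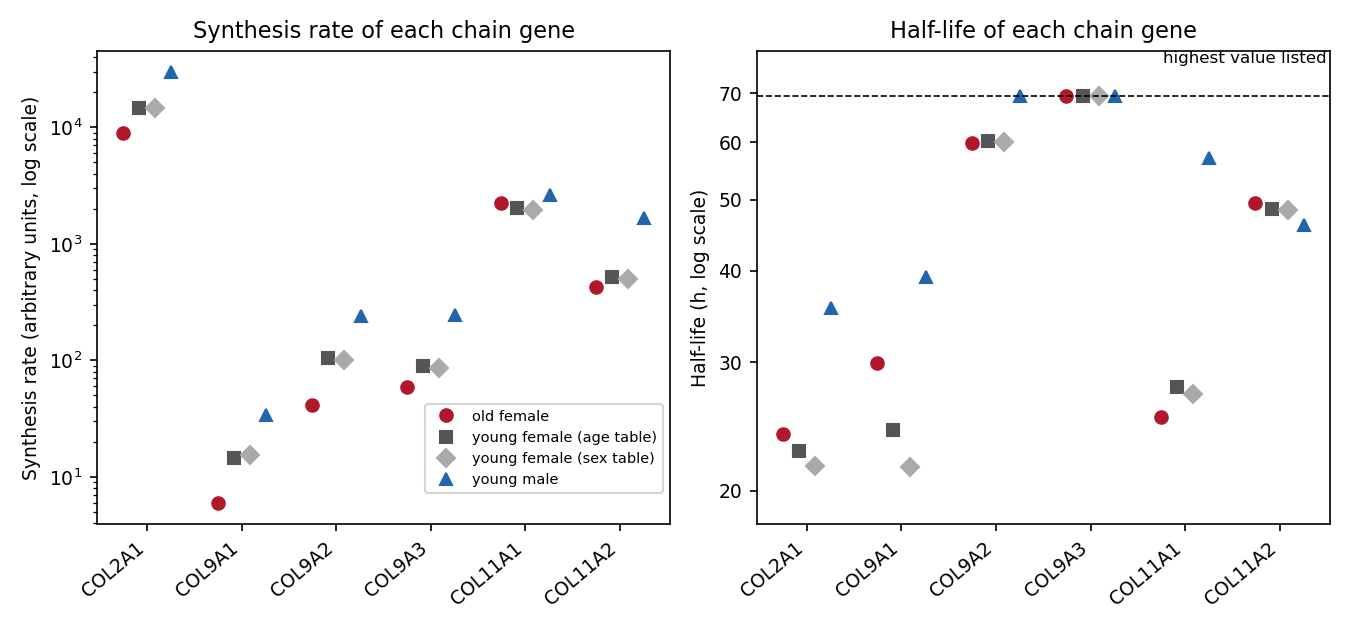
Synthesis rate (left, arbitrary units) and half-life (right, hours) of the 6 collagen genes, both on log axes; each point is the authors' single group value, and young female cells appear once per table. Young male synthesis rates are the highest for all 6 genes, old female rates are the lowest for every gene except COL11A1, and COL9A3 sits at the highest listed half-life, 69.3 h, in every group.

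Between old and young female cells, synthesis rates past 2-fold were found in 2 genes of collagen IX, COL9A1 and COL9A2, both lower in old cells. For COL2A1 the synthesis rate was 14651 in young and 8935 in old cells, a log2 ratio of -0.71 (1.64-fold lower). COL9A1 had rates of 14.5 and 6.01, a log2 ratio of -1.27 (2.41-fold lower). For COL9A2, whose product carries a glycosaminoglycan chain, they were 104 and 41.2, a log2 ratio of -1.34 (2.53-fold lower). COL9A3 had rates of 89.5 and 59.6, a log2 ratio of -0.59 (1.50-fold lower). Of the 3 collagen IX genes, 2 were thus past the 2-fold limit and COL9A3 was not. COL11A2 had rates of 519 and 425, a log2 ratio of -0.29, and COL11A1 was the only gene of the 6 with a higher rate in old cells, 2253 against 2018 (log2 ratio 0.16).

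By the 2-fold limit 2 of the 6 genes, COL9A1 and COL9A2, were lower in synthesis rate in old cells and 0 were higher; over all genes tested, 2.92% were lower and 4.59% higher. The median log2 ratio of the 6 was -0.65 (range -1.34 to 0.16), against 0.08 over all genes. COL9A2 and COL9A1 stood at percentiles 1.85 and 1.97 of the table's synthesis ratios, COL2A1 at 4.94, COL9A3 at 6.62 and COL11A2 at 14.6, whereas COL11A1 was at 60.0. Synthesis rates of the collagen IX genes were small, and none of the 3 was in the upper 75% of the age table by mean synthesis rate. No gene of the 6 that remained after that filter was past the limit. Of the 8292 genes kept, 2.11% were lower and 3.22% higher. The filter does not act on level: COL9A2 and COL9A3 had implied levels of 9056 and 8953 in young cells. The fibroblast marker FAP, at 6751, was at percentile 85.3 of levels there.

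No half-life of the 6 was past the limit by age. Half-lives were 22.6 and 23.9 h for COL2A1 in young and old cells, 60.1 and 59.9 h for COL9A2, 48.6 and 49.4 h for COL11A2, and 27.7 and 25.2 h for COL11A1. COL9A1 had the largest difference, 24.2 against 29.9 h (log2 ratio 0.30). That is under 2 times the 0.17 by which its young female estimate itself moved between tables. Against the young female estimate from the sex table its log2 ratio was 0.47, also under the limit. The median log2 ratio of the 6 was 0.01, against -0.08 for all genes, and 0 of 6 passed the 2-fold limit, which 1.47% of all genes passed upward and 2.06% downward. For COL9A3 no difference in half-life was detectable, because both values were at the ceiling.

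Implied levels in old cells followed the synthesis rates. COL9A2 was 2.54-fold lower (log2 ratio -1.35), COL9A1 1.95-fold lower (-0.97), COL2A1 1.55-fold lower (-0.63) and COL9A3 1.50-fold lower (-0.59). COL11A2 was 1.20-fold lower (-0.26) and COL11A1 differed by 0.02. By the 2-fold limit only COL9A2 was lower and 0 were higher, against 1.99% and 2.13% of all genes. COL9A1 lay just under the limit, and was past it (-1.04) after the ratios were centred within deciles of young male half-life. Its implied level was the smallest of the 6, 507 in young and 260 in old cells. The median of the 6 was -0.61, and that of all genes was 0.00.

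**Figure D2:**
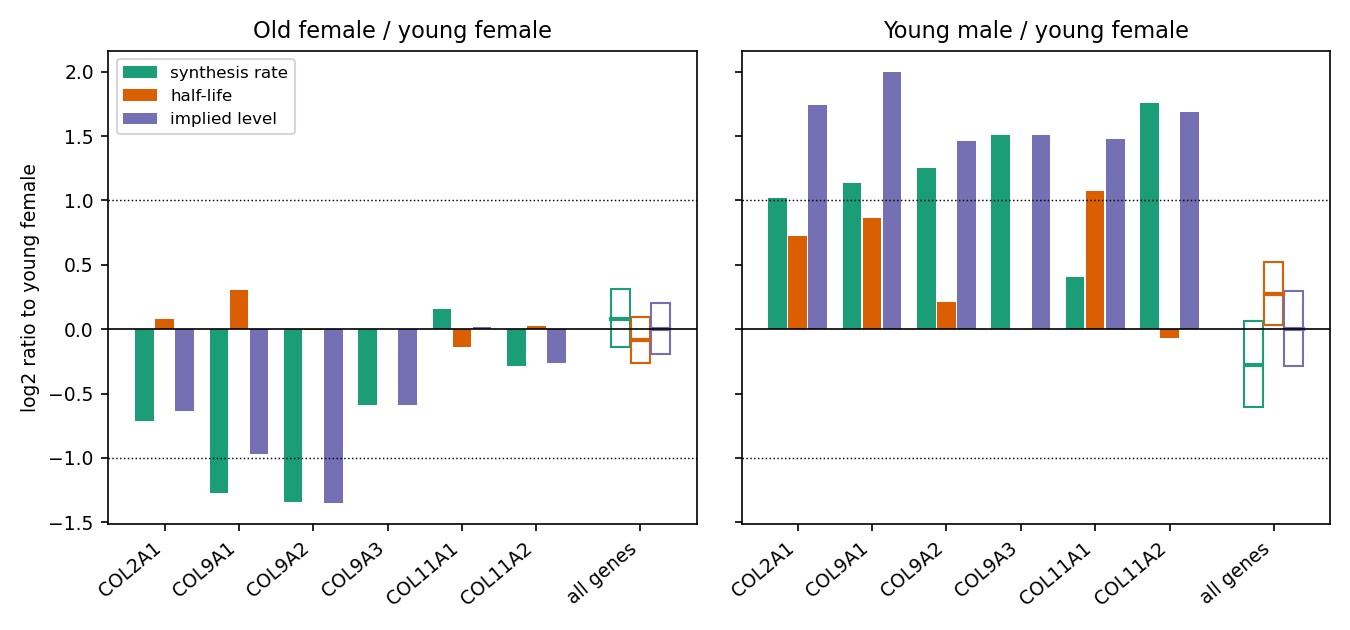
Log2 ratios to young female cells of synthesis rate, half-life and implied level for each collagen gene, for old female (left) and young male cells (right); open boxes show the interquartile range and thick lines the median over all genes of the table, and dotted lines mark 2-fold. In old cells synthesis rate and implied level are each lower for 5 of the 6 genes, reaching -1.34 and -1.35 for COL9A2. In male cells implied levels are between 1.46 and 2.00 for all 6 genes, with unequal parts from synthesis and half-life.

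In young male cells all 6 transcripts had higher synthesis rates than in young female cells. COL2A1 was at 29677 against 14666, a log2 ratio of 1.02 (2.02-fold). COL9A1 was at 34.1 against 15.5 (1.13), COL9A2 at 239 against 99.9 (1.26) and COL9A3 at 243 against 85.5 (1.51). The 3 collagen IX genes were each past the 2-fold limit, but the rates of COL9A3 in both groups and of COL9A2 in male cells were listed beside a half-life at the ceiling. The collagen XI genes stood at the 2 ends of the group. COL11A2 had the largest ratio of the 6, 1674 against 496 (log2 ratio 1.75, 3.37-fold), and COL11A1 the smallest, 2608 against 1972 (0.40, 1.32-fold).

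By the 2-fold limit 5 of 6 genes were higher in synthesis rate, all except COL11A1, and 0 were lower; of all genes 3.78% were higher and 8.37% lower. The median log2 ratio of the 6 was 1.19 (1.07 without COL9A2 and COL9A3, the genes at the ceiling), and the median over all genes was -0.28. Relative to that shift of the whole table the median of the 6 was 1.47 and COL11A1 stood at 0.68. COL2A1 was closest to the limit, and stayed past it, at 1.02, against the female estimate from the age table.

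Half-lives in male cells were longer for some of the 6 genes and not for others. COL11A1 was at 57.1 h against 27.1 h in young female cells (log2 ratio 1.07), COL9A1 at 39.2 against 21.6 h (0.86), and COL2A1 at 35.6 against 21.6 h (0.72). COL9A2 was at 60.0 h in female cells and at the ceiling in male cells, COL9A3 was at the ceiling in both, and COL11A2 was at 46.2 against 48.5 h (-0.07). COL2A1 and COL9A1 had the shortest half-lives of the 6 in both groups. Expressed as new RNA after 4 h, COL11A1 was at 9.72% in female and 4.74% in male cells, COL2A1 at 12.1% and 7.49%, COL9A1 at 12.1% and 6.82%, and COL11A2 at 5.56% and 5.83%.

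COL11A1 was the only gene of the 6 past the 2-fold limit for half-life, upward, and 0 of 6 passed it downward, against 5.62% and 1.96% of all genes. The median log2 ratio of the 6 was 0.47, and the whole table was shifted by 0.27. Deciles of half-life were taken from old female cells, the group outside this comparison. Among the 1098 genes in the same decile, which held all 6 collagen genes, the median was 0.51. Centred on that decile the median of the 6 was -0.041, so its direction turned, and COL11A1 stood at 0.57. Male half-lives at the ceiling were also more frequent over all genes, 291 (2.59%) against 107 (0.951%) in young female cells.

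Implied levels were higher in male cells for all 6 genes, within a narrow range. COL9A1 was 3.99-fold higher, COL2A1 3.34-fold, COL11A2 3.22-fold, COL9A3 2.84-fold, COL11A1 2.78-fold and COL9A2 2.76-fold. The implied level of COL9A1 was the smallest of the 6, 483 in young female and 1927 in male cells. The others were at 8550 or more in young female cells. In that group FABP4, at 593, was at percentile 26.0 of the table's levels. All 6 passed the 2-fold limit upward and 0 downward, against 3.00% and 1.61% of all genes, and each was above the 98.7 percentile of the table. The median log2 ratio of the 6 was 1.60 (range 1.46 to 2.00), against 0.01 over all genes and 0.43 over the 1098 genes of their half-life decile. Centred on that decile each of the 6 was still past the limit, from 1.04 for COL9A2 to 1.57 for COL9A1.

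**Figure D3:**
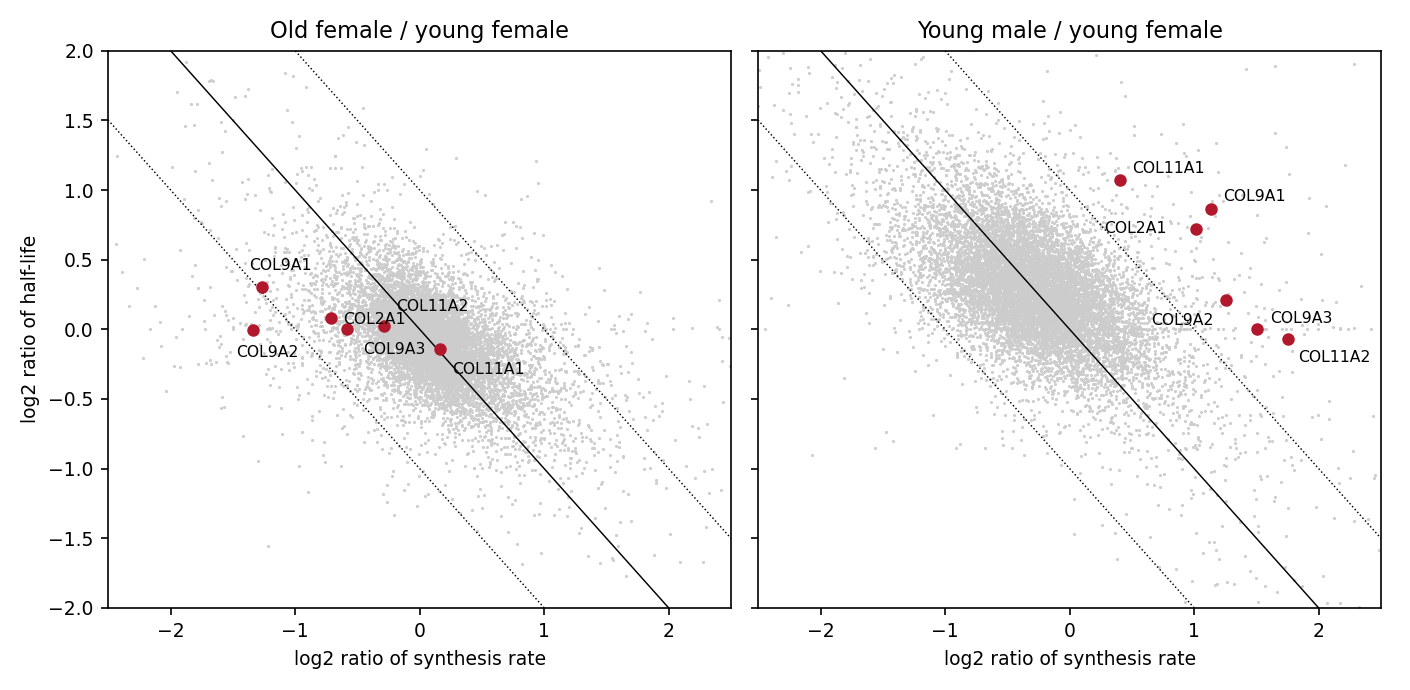
Log2 ratio of half-life against log2 ratio of synthesis rate for all genes (grey) and the 6 collagen genes (red), old over young female (left) and young male over young female (right). On the solid diagonal the implied level is equal in both groups and dotted lines mark 2-fold in level; 247 genes (age) and 266 genes (sex) lie beyond the axes. In male cells all 6 collagen genes lie beyond the upper dotted line, from COL11A1 at 0.40 in synthesis and 1.07 in half-life to COL11A2 at 1.75 and -0.07.

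The 2 collagen XI genes had similar level ratios in male cells but unlike estimates of synthesis rate and half-life. In male cells the level of COL11A1 relative to COL11A2 was 1.15-fold lower than in young female cells, whereas its synthesis rate relative to COL11A2 was 2.55-fold lower and its half-life relative to COL11A2 was 2.21-fold longer. These ratios compare each gene with itself across groups and do not depend on gene length or on a scale shared by a whole table. The repeat of the young female estimates moved the synthesis rate of COL11A1 by -0.03 and of COL11A2 by -0.06 on the log2 scale, but it tests estimation alone and not animals. An error in dividing a level into synthesis rate and half-life would move the 2 in opposite directions. This was not tested for the male values, where new RNA was 4.74% for COL11A1 and 5.83% for COL11A2. In old cells COL11A1 was 1.22-fold higher in level relative to COL11A2, and 1.57-fold higher relative to COL2A1.

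The balance within collagen IX was compared for its 3 pairs of genes. In old cells COL9A2 was 1.69-fold lower in level relative to COL9A3, and in male cells the same relation differed by 1.03-fold. COL9A1 was 1.30-fold higher relative to COL9A2 in old cells and 1.45-fold higher in male cells. Relative to COL9A3, COL9A1 was 1.30-fold lower in old cells and 1.40-fold higher in male cells. Relative to COL2A1, the level of COL9A2 was 1.64-fold lower in old cells and 1.21-fold lower in male cells, and that of COL9A3 was 1.03-fold higher and 1.17-fold lower. The chains of collagen IX are used together in a single molecule, and these transcript ratios say nothing on the amounts of protein.

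Reads that belong to neighbouring genes could enter some of these values. In the RefSeq annotation of another horse assembly (TB-T2T) COL9A2 overlaps SMAP2 and ZMPSTE24, COL9A3 overlaps TCFL5, and COL11A1 overlaps 2 genes without a name; whether the authors counted by strand is not given in the sources used here. SMAP2 and ZMPSTE24 had log2 level ratios of -0.21 and -0.15 in old cells and of -0.07 and 0.24 in male cells, where COL9A2 had -1.35 and 1.46. TCFL5 and the 2 unnamed genes were listed in neither table. COL2A1, COL9A1 and COL11A2 overlapped no other gene there.

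For the related gene lists, counts past the limit in level stand beside 2.13% of all genes higher and 1.99% lower in old cells, and 3.00% and 1.61% in male cells. These counts were not centred on the genes' half-life deciles. Of 23 genes for chain modification and assembly, such as prolyl hydroxylases, lysyl hydroxylases and the collagen chaperone SERPINH1, 21 were listed. Their median log2 level ratio was -0.10 in old and 0.65 in male cells, and 0 of 21 passed the limit in old cells. In male cells only COLGALT2, a collagen galactosyltransferase, passed it (1.54), which is close to the share over all genes, and 18 of 21 were above 0, against 50.5% of all genes. P4HA3, a prolyl hydroxylase subunit, was past it downward in synthesis rate in both, at -1.59 in old and -1.34 in male cells, but its half-life was at the ceiling in old and in male cells (28.7 h in young female cells of the age table), and its log2 level ratios were -0.32 and -0.13. SERPINH1, chosen after its values were seen, had a half-life of 4.56 h in old against 9.92 h in young cells. By age 2.06% of all genes were past the limit downward in half-life. In male cells the half-life of SERPINH1 was longer, 13.6 h against 9.90 h in young female cells.

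Genes for cleavage of procollagen ends and for cross-linking showed a wider spread. In old cells 1 of 11 listed genes was lower in level, ADAMTS14 (-2.04), a procollagen peptidase, and 0 were higher. In male cells 6 of 12 were higher and 0 lower, with a median log2 level ratio of 1.06. The largest were ADAMTS2 (2.86), another procollagen peptidase, the enhancer protein PCOLCE (1.69) and the protease TLL1 (1.56). The implied levels of TLL1 were low, 267 in young female and 788 in male cells. ADAMTS2 was listed in the sex table only, with synthesis rates of 3.37 and 12.8, so its female value had no second estimate.

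Genes for proteins that bind the fibril or the matrix around it were past the limit in both directions by age. Of 24 listed genes, 6 were higher and 3 lower in level by age, and their median log2 ratio was 0.15. LUM (2.98) and EPYC (2.61), which encode small leucine-rich proteoglycans, and CILP (1.45) were highest. VCAN (-1.68), MATN4 (-1.17) and the link protein gene HAPLN1 (-1.01) were lowest. VCAN had implied levels of only 471 in young and 147 in old cells, and its young half-life was at the ceiling. In male cells all 24 were above 0, against 50.5% of all genes, and 16 passed the limit, with a median of 1.43, led by CILP2 (2.56), MATN2 (2.38) and LUM (2.32). COMP, a binding partner of collagens II and IX named here for that role, had a log2 level ratio of 0.83 by age beside -0.63 for COL2A1, and 1.60 by sex beside 1.74.

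Of 24 transcription factors and cofactors chosen for a known role at these genes, 22 were listed, with median log2 level ratios of 0.15 by age and -0.07 by sex. Among them 0 passed the limit for level in old cells, and in male cells only NFATC2 did (1.26). SOX9 had synthesis rates of 13287 in young and 9794 in old cells and of 12723 in young female and 12297 in male cells, with half-lives between 0.727 and 0.750 h throughout; its log2 level ratios were -0.49 and -0.08. SOX5 had -0.39 and -0.38, and SOX6 had 0.42 and 0.25; the SOX genes are named for their known role, and the naming rule did not require them. ARID5B passed the limit for synthesis rate in both directions, at -3.90 in old and 3.14 in male cells, but its young female half-life was 0.0471 h in the age table and 0.719 h in the sex table, so that its ratios rest on estimates that did not repeat.

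Among other collagens, several were past the limit in level. The first list held 11 collagens of other tissues and of dedifferentiated chondrocytes, the collagen VI genes among them. In old cells the collagen I genes COL1A1 (-2.86) and COL1A2 (-1.82) and COL3A1 (-1.12) were lower in level, the 3 of these 11 past the limit, and 0 were higher. In male cells 6 of those 11 were higher, with COL1A1 at 4.19, COL1A2 at 3.40 and COL5A2 at 2.16, and 0 were lower. The second list, of further collagens, was not limited to those particular to cartilage, and 8 of its genes were in the tables. Of these 8, 4 were lower in old cells, among them COL15A1 (-2.03), COL4A1 (-1.71) and COL18A1 (-1.50), and 1 was higher, COL10A1. In male cells only COL10A1 of those 8 was higher and 0 were lower, with a median log2 level ratio of 0.66. COL10A1, the collagen of hypertrophic cartilage, was higher in both, by 4.42 in old and 4.62 in male cells. Both ratios share the young female samples as reference, so they are not independent. Its half-life was 30.4 h in young female cells of the age table and at the ceiling in old and male cells. The median over both collagen lists was -0.63 in old cells and 0.91 in male cells, beside -0.61 and 1.60 for the 6 genes of collagens II, IX and XI.

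**Figure D4:**
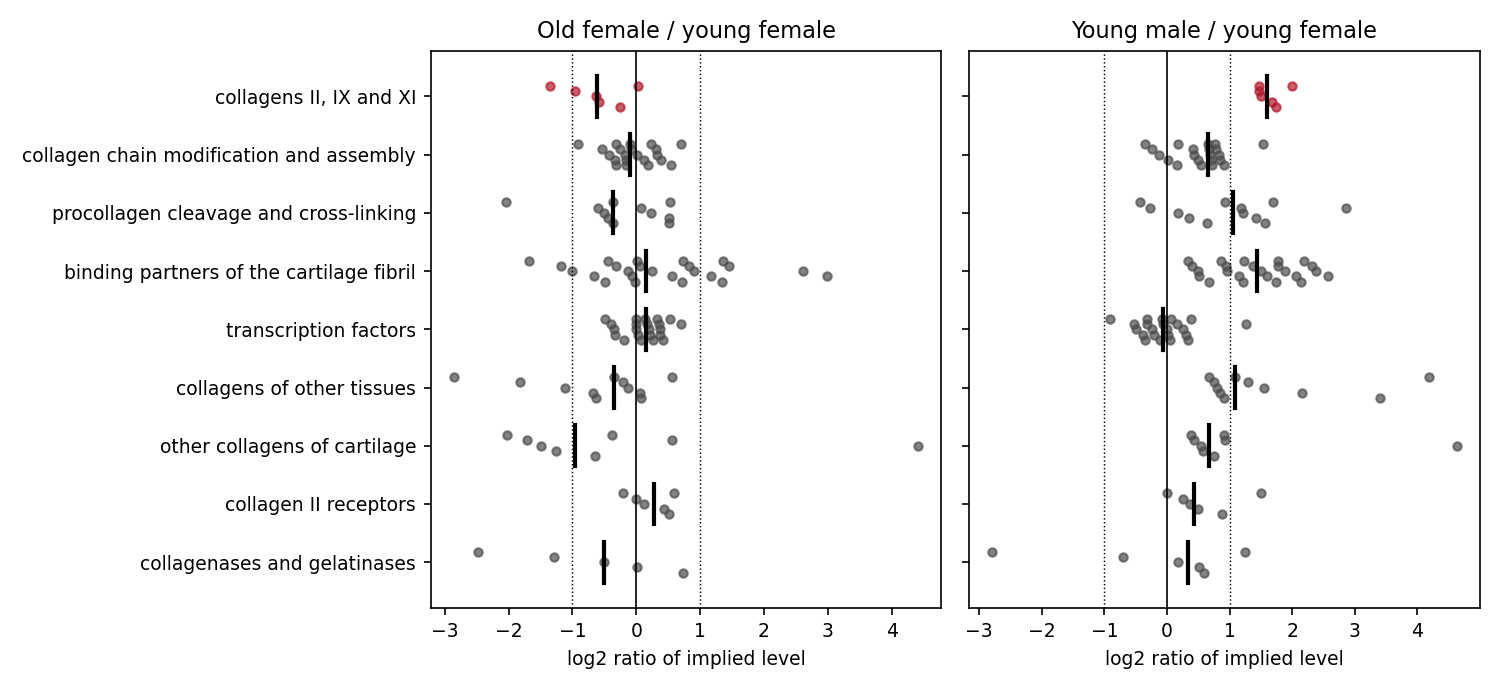
Log2 ratio of implied level for the 6 collagen genes (red) and for the genes of 8 related lists (grey), old over young female (left) and young male over young female (right); each point is a gene, thick bars are list medians and dotted lines mark 2-fold. In male cells the 6 collagen genes lie between 1.46 and 2.00. The fibril-binding genes have a median of 1.43 there, and the transcription factors and cofactors of -0.07. The points far to the right in both panels include COL10A1 at 4.42 and 4.62, both against the same young female samples.

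Markers of chondrocytes and of other cell states are given beside these differences, some past the limit and others not, and their part in the differences was not tested. For 9 chondrocyte markers, 7 of them listed, the summed implied level in old cells was 1.00-fold that of young cells, with 0 markers higher and 1 lower, and in male cells it was 2.20-fold that of female cells, with 3 higher and 0 lower. The equal sum by age held unequal markers: COMP had a log2 level ratio of 0.83, ACAN of -0.48, SOX9 of -0.49 and HAPLN1 of -1.01, and the median of the 7 was -0.13. By sex the markers were unequal too. CHAD (1.78), CNMD (1.74) and COMP (1.60) were past the limit, CNMD from a female level of 191 at percentile 7.42. ACAN was at 0.95, MATN3 at 0.39, HAPLN1 at 0.34 and SOX9 at -0.08. Of 8 fibroblast markers 6 were listed, without CD34 and DPP4, and their summed level was 1.68-fold lower in old cells (0 higher, 2 lower) and 1.90-fold higher in male cells (3 higher, 0 lower). By sex PDGFRA (-0.71) and PDPN (-0.21) were below 0, and the sum was mostly COL3A1 (1.08) and COL1A1 (4.19), which are also in the first list of other collagens. Of 5 markers of hypertrophic cells and osteoblasts 4 were listed, without BGLAP, and the sum was 2.13-fold higher in old cells (1 higher) and 2.95-fold higher in male cells (4 higher). By age the sum was mostly SPP1 (0.72) and COL10A1 (4.42), and ALPL was at -0.67. CD14 was listed at 1.20-fold and 1.11-fold, and VWF at 1.20-fold and 1.03-fold. Of 5 smooth muscle markers, 3 were listed in the age table (summed level 1.20-fold lower in old cells, with 0 markers higher and 1 lower, MCAM at -2.13) and 5 in the sex table (1.57-fold higher in male cells, with 1 marker higher and 1 lower). The median log2 level ratio of those 5 was -0.41 by sex. ACTA2 was at 4.82, from a female level of 117 at percentile 1.92, and was listed in the sex table only. The other 4 were below 0, down to -1.76 for MCAM. Of 4 adipocyte markers only FABP4 was listed, at 1.34-fold and 2.83-fold.

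The genes whose kinetics were most like the median of the 6, by the distance between 4 log2 ratios (synthesis rate and half-life, by age and by sex), were F13A1, CHADL, EFEMP1, ANGPTL2 and IGFBP2, out of 10269 named genes in both tables. F13A1, the gene of a transglutaminase subunit, was nearest at a distance of 0.29, with synthesis ratios of -0.64 by age and 0.95 by sex and half-life ratios of 0.06 and 0.31. CHADL, which encodes a chondroadherin-like matrix protein, was at 0.37, with synthesis ratios of -0.79 and 1.27. EFEMP1, ANGPTL2 and IGFBP2 were at 0.40, 0.43 and 0.45. Of the collagen genes themselves COL2A1 was nearest, at 0.33, and COL11A1 was farthest at 1.29; 821 other genes were nearer to that median than COL11A1.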

How the data were processed

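Poly(A)-selected, strand-specific libraries of 4sU-labelled RNA were made after alkylation for 15 min at 50 °C, per the labels' protocols. Per the submitters' processing notes, cutadapt 4.5, STAR 2.5.3 and the build EquCab3.0 were used. The kinetic model, gene filter and combination of replicates are not given in the sources used here. The deposited values are 1 synthesis rate and 1 half-life per gene and group, per the file headers, without units; "Young" in the age table was read as young female from the labels. There were 0 columns of values per sample, so no test between groups was possible.

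Ratios were formed within a table, without pseudocount or filter, in Python 3.11.15 with pandas 2.3.3 and numpy 2.4.6, after a check on artificial tables. The members and the gene lists were chosen with earlier results of these data known. Genes named from a list were at most 3 in each direction past the 2-fold limit in synthesis rate or implied level; the nearest 5 genes were taken by Euclidean distance, and others are marked. All 129 symbols of the members and lists matched RefSeq symbols. Alternatives were another reference estimate, centring, a limit of 0.5, a half-life range, a synthesis filter, and leaving out members. Half-life deciles came from the group outside each comparison, young male cells for age and old female cells for sex.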

Additional observations from a re-analysis of the deposited data

How the results depend on the processing

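With 1 value per group, a median was taken as moved at 0.1 log2 units and a count at more than 1.5 times. No replicate could be left out. No paired analysis was possible because the tables hold no values per sample. Of the alternative counts and medians 73 were unmoved, 25 moved and 1 changed sign. At a limit of 0.5, 4 genes were past it for synthesis rate and 4 for level by age, all lower. Of all genes, 6.62% had a lower synthesis ratio than COL9A3 (-0.59) and 14.6% a lower one than COL11A2 (-0.29). For level the shares below COL9A3 (-0.59) and COL11A2 (-0.26) were 5.61% and 18.4%. The share of all genes past -0.5 thus lay between these. The lower quartiles over all genes by age were -0.14 for synthesis rate and -0.19 for level. For half-life by sex 3 genes were past 0.5, all longer, but the upper quartile over all genes, 0.53, was past it too. Within 1 to 24 h, COL2A1 alone remained by age and the counts for synthesis rate and level were 0; by sex no gene remained. With the lowest-synthesis genes left out (the upper 75% kept), COL2A1, COL11A1 and COL11A2 remained by age: both counts were 0 and the medians were -0.29 for synthesis rate and -0.26 for level. Of the 8292 genes kept, 2.11% were lower and 3.22% higher in synthesis rate, and 1.16% lower and 1.30% higher in level. By sex, where COL9A1 was left out, the half-life median was 0.21. Centring on all genes moved the sex medians to 1.47 for synthesis rate and 0.19 for half-life, and 0 genes passed for half-life. Centring within half-life deciles left 0 for half-life by sex, turned that median to -0.041, lowered the level median to 1.17, and gave 2 genes for level by age. No share over all genes is given here for centred ratios. Without genes at the ceiling the sex medians were 1.07, 0.79 and 1.71 for synthesis rate, half-life and level. Leaving out single genes gave half-life medians of 0.21 to 0.72 by sex. The cause of these shifts was not tested. Of the alternative ratios of single genes 82 were unmoved and 26 moved. New RNA at 3.92% at the ceiling limits the half-lives.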

Other observations

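Receptors for collagen II and enzymes that cut it were listed in part. Of 7 receptor genes, integrin subunits and discoidin receptors, 6 were listed, and in old cells 0 passed the 2-fold limit for level in either direction, with a median log2 ratio of 0.28. In male cells 1 did, ITGA11 (1.50), a collagen-binding integrin subunit, whose half-life was 33.9 h against 15.4 h. Of 7 collagenase and gelatinase genes, 5 were listed in the age table and 6 in the sex table. In old cells 2 of 5 were lower in level, MMP1 (-2.48) and MMP2 (-1.29), and 0 were higher. The young female half-life of MMP1 was at the ceiling. In male cells 1 of 6 was higher in level and 1 lower. MMP13, the main collagenase acting on collagen II, had a log2 level ratio of 0.74 by age (synthesis rates of 365 in old against 190 in young cells) and of 1.25 by sex (332 in male against 181 in female cells). MMP9 was listed in the sex table only, so its female value had no second estimate. Its half-life was 1.58 h in male against 41.5 h in female cells. Its synthesis rate was higher (log2 ratio 1.93) and its level lower (-2.79). That level was small in both groups, 888 in female and 128 in male cells.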
